A study of Homo sapiens with 2 samples.

Results

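Peaks flanking the centromeres were examined in the brachyury ChIP-seq list of MDA-MB-231 cells. A peak was taken as a member when its midpoint lay within 5 Mb of the GRCh37 centromere position of its chromosome, for chromosomes 1 to 22. By this rule 523 of the 10342 peaks in the list (5.06%) were members, and the other 9715 peaks of the same 22 chromosomes served for comparison. The remaining 104 peaks lay on X and Y, for which no position was given. The rule used position alone, so width and score were free to differ.

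MDA-MB-231 is an established human breast cancer cell line, and the methods of the study call the cells wild type. ChIP-seq isolates DNA bound to a protein with an antibody, and the methods of the study name an antibody against brachyury, whereas the sample labels name none for the first library, which was taken as the ChIP library for this reason and from the name of the list. The series holds 1 library labelled MDA-MB-231 and 1 labelled MDA-MB-231, input, a control made without antibody, and the peak list compares them. There was 1 library of each kind from 1 cell line, so the spread between replicates is unknown, the read depth of both is unknown, and no comparison between conditions can be made. Each peak carries a score, 10 times the negative log10 of its p-value against the local background, and no score in the list is under 50.

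Brachyury is a T-box transcription factor that directs the formation of mesoderm and notochord and is found again in chordoma and several carcinomas. Human centromeres are built on long arrays of alpha satellite repeats, which carry the kinetochore during cell division. They are bordered by heterochromatin and by segmental duplications, stretches copied between several chromosomes. In GRCh37 (hg19) the arrays themselves are mostly left as gaps of unknown bases, and short reads from the flanking repeats are difficult to place uniquely.

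The positions of the rule were first set against the list. On the 18 chromosomes with peaks on both sides, each centromere position lay inside an interval without any peak. Peaks cover only a small part of a chromosome, so most positions lie between peaks and this alone does not check the positions. The interval at the centromere position was 3.16 to 21.8 Mb long, with a median of 3.35 Mb. For the other peaks the median gap to the next peak was 157 kb. The longest were found on chromosome 1 (21.8 Mb), chromosome 9 (18.4 Mb) and chromosome 16 (11.4 Mb), the chromosomes known for large heterochromatin blocks at the start of the long arm. In these 3 chromosomes no member lay on the long arm side. On the acrocentric chromosomes 13, 14, 15 and 22 the list held no peak on the short arm, so that only the long arm side could be described. Chromosome 21, which is acrocentric too, had 9 members on the short arm side.

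The closest approach to a centromere was found on chromosome 3, the only chromosome with peaks within 1 Mb. There, 5 members lay on the short arm side, the innermost of them from 90366980 to 90368065 at 0.632 Mb from the position. With only the innermost peak of each side counted, next came 1422 bp on chromosome 15 at 1.002 Mb and 1027 bp on chromosome 12 at 1.06 Mb. A peak of 2341 bp on chromosome 2 at 1.10 Mb and 1 of 788 bp on chromosome 5 at 1.13 Mb followed. The scores of these innermost peaks were 55.56, 52.71, 65.71, 95.16 and 54.46, with that of chromosome 2 the highest. At the other border of the rule, the 3 members just inside lay at 4.997, 4.993 and 4.989 Mb, with widths of 970, 925 and 968 bp. The 3 peaks just outside lay at 5.013, 5.025 and 5.026 Mb, with widths of 976, 1181 and 897 bp. Scores were 52.09 to 58.51 inside the border and 54.29 to 58.18 outside it.

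**Figure D1:**
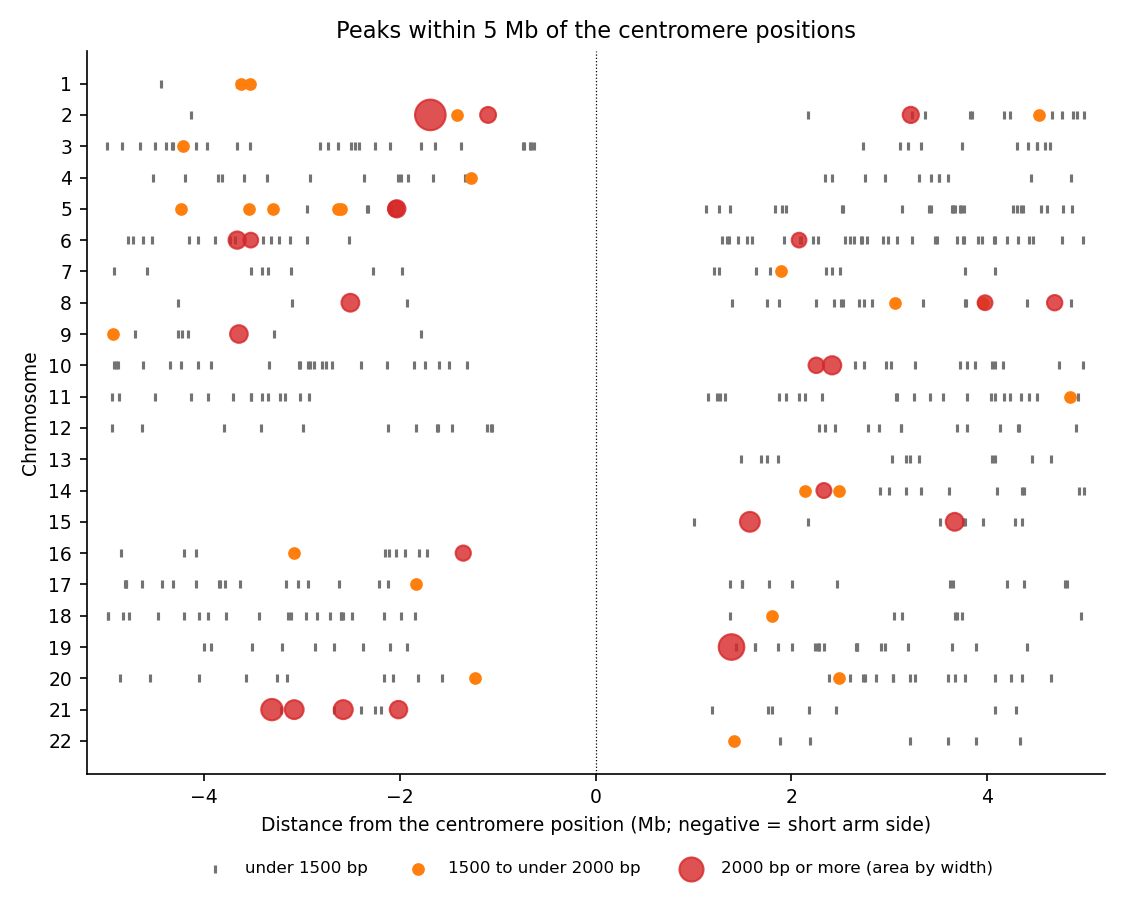
All 523 members by signed distance from the centromere position (horizontal axis, Mb, negative on the short arm side) and chromosome (vertical axis). Grey ticks are peaks under 1500 bp, orange points 1500 to under 2000 bp and red points 2000 bp or more, with area in proportion to width. No member lies closer than 0.632 Mb to the position, and red points stand mostly within 4 Mb of it (22 of 23).

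The number of members per chromosome ranged from 4 on chromosome 1 to 54 on chromosome 6, with a median of 24. Density was counted as peaks per Mb between the outermost peaks of each chromosome, since a genome sequence of the build was not used here. Near the centromeres it was 2.72 peaks per Mb over all chromosomes, against 3.76 peaks per Mb elsewhere. Density was lower near the centromere than on the rest of the chromosome in 17 of 22 chromosomes, with a median ratio of 0.778. By the exact two-sided sign test over chromosomes this gave p = 0.017, and p = 0.051 after adjustment for the 3 sign tests, which misses the threshold of 0.05. Against peaks at 5 to 25 Mb the difference passed the threshold (ratio 0.791, exact sign test, adjusted p = 0.0026). It also passed when peaks under 1 kb apart were merged (ratio 0.781, exact sign test, adjusted p = 0.040), where the unadjusted p was again 0.017. The adjusted p then fell only because the sign test of width, adjusted together with it, gave a lower p. It did not pass within 10 Mb (ratio 0.796, exact sign test, adjusted p = 0.29), without chromosomes 1, 9 and 16 (0.809, adjusted p = 0.19), without the acrocentric chromosomes (0.760, adjusted p = 0.12) or among peaks at or above the median score (0.689, adjusted p = 0.079). Within 2 and 3 Mb the ratios were 0.327 and 0.577, but the empty interval described above fills most of such windows, so a lower density there was given by the interval. All settings in this paragraph, also those at 5 to 25 Mb and after merging, count the empty interval in the length where there is one. None of them therefore tells about density outside the interval.

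The lowest ratios were those of chromosomes 1, 9 and 16, the chromosomes with the longest empty intervals. On chromosome 1 the density was 0.400 peaks per Mb near the centromere and 2.82 elsewhere, a ratio of 0.142 (exact 95% interval 0.0386 to 0.365). On chromosome 9 the ratio was 0.276 (95% interval 0.118 to 0.550), and on chromosome 16 it was 0.289 (95% interval 0.143 to 0.524). The highest ratios were 1.50 on chromosome 18 (95% interval 0.979 to 2.23), 1.11 on chromosome 6 (95% interval 0.825 to 1.46) and 1.10 on chromosome 14 (95% interval 0.597 to 1.87), and all 3 intervals include 1. The window of chromosome 14 starts at its first peak, is 2.87 Mb long and holds no empty interval. The windows of chromosomes 13, 15 and 22 also start at the first peak. So does that of chromosome 21, which is 8.31 Mb long and does hold an empty interval. These ratios, which enter the sign test too, are therefore not measured like those of the other chromosomes. In 7 chromosomes the 95% interval of the ratio lay wholly below 1 and in 0 wholly above it. These intervals cover counting error only and take peaks as independent of each other.

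The empty interval at the centromere held 72.9 of the 192 Mb in the windows. When it was left out of the length, the median ratio was 1.07, with 14 chromosomes higher and 8 lower (exact sign test, adjusted p = 0.38), so that the direction turned. Each remaining stretch then begins with a peak by construction. The 37 members that were the innermost peak of their side were then left out too, a choice made after the data had been seen. They are called bounding peaks, also on chromosomes 13, 14, 15 and 22, which have no empty interval. This left 486 members at 4.07 peaks per Mb. The median ratio was 0.994, with 11 chromosomes higher and 11 lower. In this count chromosome 18 had 4.28 peaks per Mb near the centromere, a ratio of 2.07 (95% interval 1.33 to 3.11). Chromosome 6 had 8.40 peaks per Mb, the highest of all windows, and a ratio of 1.72 (95% interval 1.28 to 2.28). In the other 20 chromosomes the interval of the ratio included 1.

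**Figure D2:**
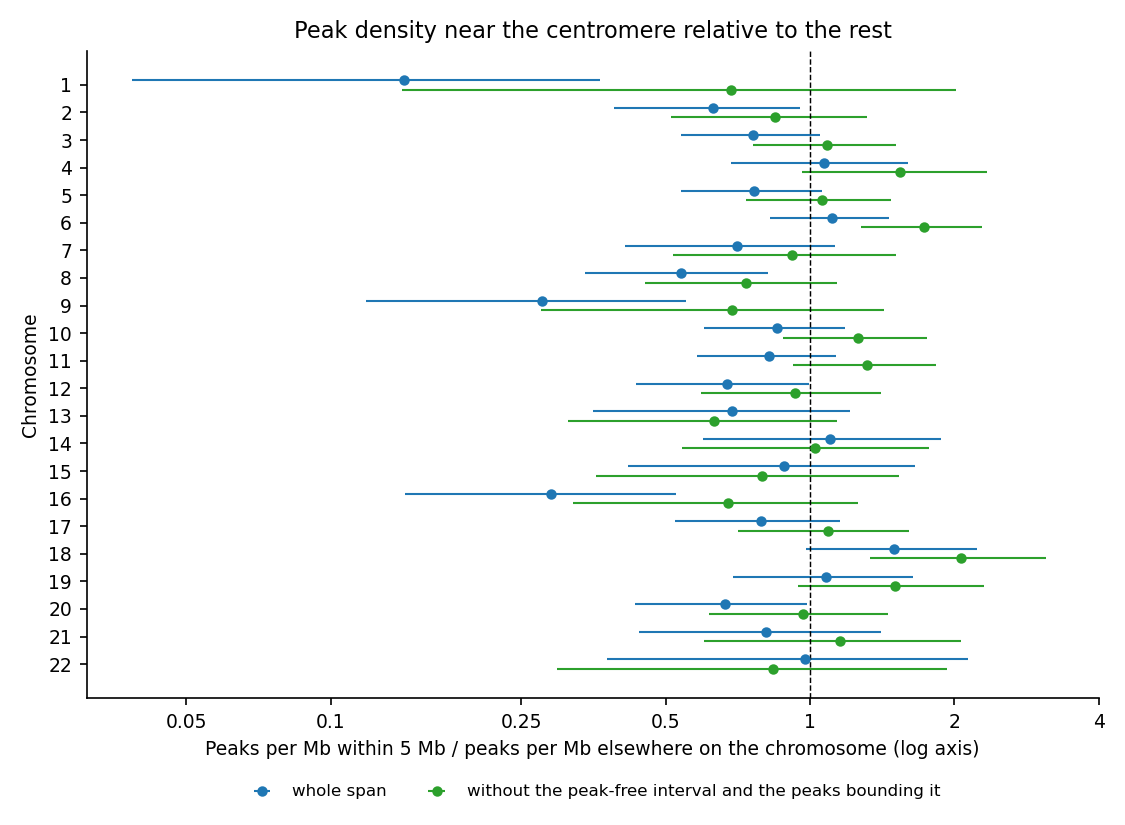
Ratio of peak density within 5 Mb of the centromere position to that of the rest of the chromosome (horizontal log axis), by chromosome (vertical axis), with exact 95% intervals for counting error. Blue points use the whole span and green points leave out the peak-free interval and, where it is a member, the innermost peak of each side. Chromosomes 1, 9 and 16 lie at 0.142, 0.276 and 0.289 in blue and at 0.685, 0.686 and 0.674 in green.

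With distance from the centromere, density rose and then levelled. It was 0.139 peaks per Mb in the first Mb, 2.28 in the second, 3.39 in the third and 3.84 in the fourth, and it stayed between 3.39 and 4.15 in every step from there to 50 Mb. Without the empty intervals and their bounding peaks, the values from 1 to 5 Mb were 4.21, 3.85, 4.19 and 4.03 peaks per Mb, close to the 3.68 found at 5 to 10 Mb. Windows of 10 Mb were also laid along the 17 chromosomes other than 13, 14, 15, 21 and 22. The centromere window held fewer peaks than the median window of its chromosome in 13 of these, and it held the fewest in 3 of them, chromosomes 5, 16 and 20. Each centromere window includes the empty interval, so a low count was in part given by it. Without the interval and its bounding peaks, the density ratios of chromosomes 5, 16 and 20 were 1.06, 0.674 and 0.965.

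Width was compared next, since the median and the upper end of the distribution behaved differently. The median width was 968 bp in members and 960 bp in the other peaks. The lower quartiles were 850 and 839 bp and the upper quartiles 1108 and 1076 bp. The gap then widened, with the 95th percentile at 1932 bp in members and 1503 bp in the others, and the 99th percentile at 3230 and 2044 bp. The mean was 1086 ± 586 bp (SD over 523 members) against 998 ± 294 bp (SD over 9715 peaks).

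Among the 21 chromosomes with at least 5 members, the median width was higher near the centromere in 15 and lower in 6, by a median of 12 bp. This difference did not pass the exact two-sided sign test (p = 0.078, adjusted p = 0.12). It passed within 3 Mb, where the median was higher in 15 of 16 chromosomes by a median of 46.5 bp (adjusted p = 7.8e-04, exact sign test), and when peaks under 1 kb apart were merged (17.5 bp, adjusted p = 0.040). Within 2 Mb, where only 11 chromosomes had enough members, it was higher in 7 (exact sign test, adjusted p = 0.82). Chromosome 21 had the largest difference, 1087 bp in members against 903 bp in the rest, followed by chromosome 15 (1082 against 926 bp) and chromosome 16 (1099 against 966 bp). The opposite was found on chromosome 22 (916 against 1063 bp), chromosome 13 (882.5 against 948.5 bp) and chromosome 20 (938 against 977.5 bp). Chromosome 22 had 7 members, so its median rests on few peaks.

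Wide peaks made up a larger share of the members than of the other peaks in this list, which did not pass a test over chromosomes. A width of 1500 bp or more was found in 47 of 523 members (8.99%, Wilson 95% interval 6.83 to 11.7) and in 492 of 9715 other peaks (5.06%, interval 4.65 to 5.52), against 5.26% of all peaks on the 22 chromosomes. From 2000 bp the counts were 23 members (4.40%, interval 2.95 to 6.51) and 115 other peaks (1.18%, interval 0.987 to 1.42), against 1.35% of all. From 3000 bp they were 7 members (1.34%, interval 0.650 to 2.74) and 13 other peaks (0.134%, interval 0.0782 to 0.229), against 0.195% of all. Narrow peaks under 700 bp did not follow, with 45 members (8.60%, interval 6.49 to 11.3) and 760 other peaks (7.82%), against 7.86% of all. The share from 1500 bp was higher than in the rest of the chromosome in 16 chromosomes and lower in 6 (exact two-sided sign test, p = 0.052). The share from 2000 bp was higher in 10 and lower in 8 (exact sign test, p = 0.81), and 11 chromosomes had such a member. Both of these tests were chosen after the shares had been seen, and neither passes the threshold. Against peaks at 5 to 25 Mb only, the share from 1500 bp was 8.99% in members and 6.33% in the comparison. Peaks of 1 list are not independent of each other, so these intervals are too narrow.

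Wide peaks were unevenly spread over the genome, and chromosome 5 had to be considered apart. Of the 13 other peaks of 3000 bp or more, 10 lay on chromosome 5, as did 55 of the 115 from 2000 bp. Without chromosome 5, the members from 2000 bp numbered 21 of 485 (4.33%) and the other peaks 60 of 8867 (0.677%). From 3000 bp there were then 7 members and 3 other peaks. If the members of each chromosome had had the share of its other peaks, 24.3 of them would have reached 1500 bp and 5.71 would have reached 2000 bp, where 47 and 23 did. The same count within chromosome arms can be made for 36 of 37 arms, since the short arm of chromosome 21 had no other peak. It gave 25.2 and 6.25 from the arms, where 43 and 19 of 514 members were found. These sums carry no test.

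**Figure D3:**
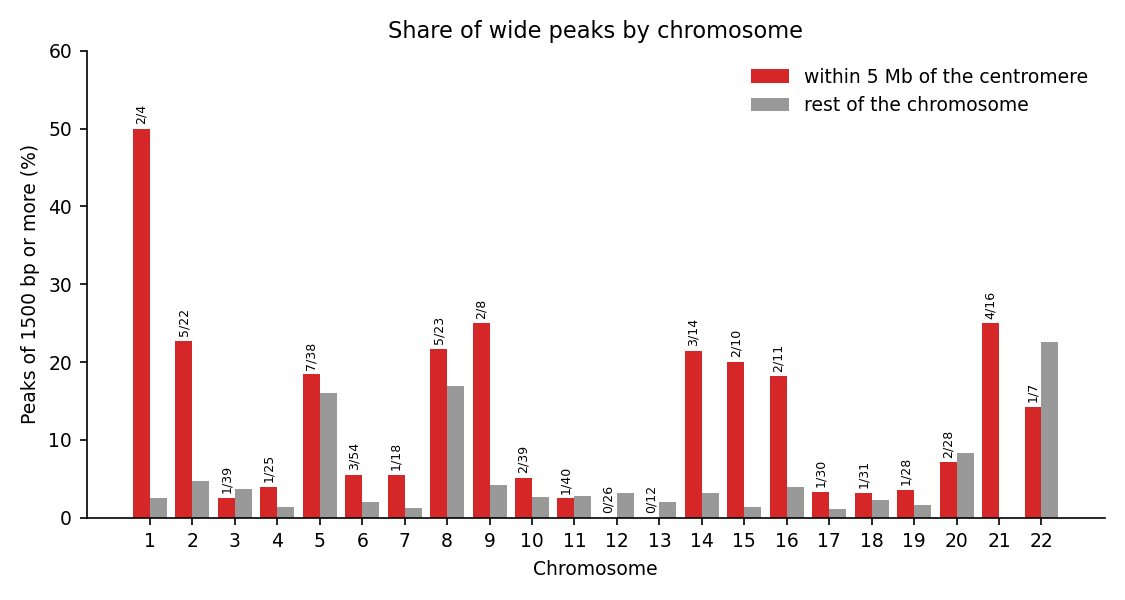
Share of peaks of 1500 bp or more (vertical axis, %) by chromosome, in members (red) and in the rest of the chromosome (grey), with the counts of members over each red bar. Chromosome 21 has 4 of 16 members and 0 of 71 other peaks in this class, while on chromosome 5 both shares are high, at 18.4% and 16.04%.

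The widest peak of the whole list was a member. It covered 8644 bp on chromosome 2 from 91606403 to 91615046, on the short arm side at 1.69 Mb from the centromere position, and its score of 73.88 had only rank 1730 in the list. A further wide member of 2415 bp lay on the long arm side of chromosome 2, from 96517393 to 96519807, with a score of 51.58. Of the 4 members on the short arm side of chromosome 2, the other widths were 987, 1674 and 2341 bp. The short arm of chromosome 2 outside the window had 30 of 402 peaks at 1500 bp or more (7.46%), against 3 of these 4.

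The member next in width covered 6053 bp on chromosome 19 from 27884371 to 27890423 and had rank 3 in the list by width. It was the innermost peak of the long arm, at 1.39 Mb from the position, with a score of 77.96. It was the only one of the 28 members of chromosome 19 that reached 1500 bp.

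Chromosome 21 held 4 wide members close together. On its short arm side 9 members lay within 1.30 Mb, from 9890264 to 11186946, and they were the only peaks of the list on that arm. In order along the chromosome their widths were 4200, 1048, 3277, 1125, 3331, 1290, 1287, 728 and 2815 bp. Their scores were 73.45, 90.49, 55.43, 50.25, 67.82, 70.05, 101.54, 86.89 and 68.74. Thus 4 of 9 were wider than 2000 bp, whereas none of the 7 members on the long arm side or of the 71 other peaks reached 1500 bp. The highest score in this group, 101.54, belonged to a peak of 1287 bp and not to a wide one.

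Chromosome 15 gave a similar picture on its long arm side, with 10 members. The wider of its wide members covered 3617 bp from 20572969 to 20576585 and scored 79.22, and the other covered 2935 bp from 22665902 to 22668836 and scored 52.33. The other 8 members were 767 to 1422 bp wide. Elsewhere on chromosome 15, 3 of 222 peaks reached 1500 bp and 0 reached 2000 bp. On chromosome 10 a pair of wide members lay on the long arm side, 2203 bp from 42452113 to 42454315 and 3063 bp from 42613699 to 42616761, with scores of 70.10 and 50.70.

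Further members of 2000 bp or more were found on chromosomes 5, 6, 8, 9, 14 and 16. Those of chromosome 6 were 2758, 2015 and 2001 bp wide, and no peak of that chromosome outside the window reached 2000 bp (0 of 781). The only member of chromosome 9 from 2000 bp had 2874 bp, between 45353844 and 45356717, and scored 103.50. On chromosome 8 a peak of 2922 bp from 43092609 to 43095530, on the short arm side, scored 87.55. On chromosome 16 the innermost peak of the short arm was 2141 bp wide, from 35245843 to 35247983, with a score of 81.92.

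On chromosome 5 the share of wide peaks was about the same inside and outside the window of the short arm. On the short arm side 7 of 13 members reached 1500 bp (53.8%), and on the rest of the short arm 115 of 216 peaks did (53.2%). On the long arm side none of 25 members was wide, against 21 of 632 (3.32%). The members of 2332 and 2725 bp from 46357960 to 46370071 lay side by side as the innermost pair of the short arm. The long arm of chromosome 8 was also rich in wide peaks throughout, with 4 of 19 members (21.1%) and 98 of 557 other peaks (17.6%).

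By distance, most wide members lay at 1 to 4 Mb. The share from 1500 bp was 0% in the first Mb (0 of 5), 13.8% at 1 to 2 Mb (12 of 87), 10.4% at 2 to 3 Mb (14 of 135), 9.93% at 3 to 4 Mb (15 of 151) and 4.14% at 4 to 5 Mb (6 of 145). It was 5.74% at 5 to 10 Mb (38 of 662) and did not go beyond 7.42% in any step out to 50 Mb. From 2000 bp, 22 of the 23 members lay within 4 Mb, where 378 of the members were found. The Wilson intervals of neighbouring steps overlap, as at 3 to 4 Mb (6.11 to 15.7%) and 4 to 5 Mb (1.91 to 8.73%), as do those at 1 to 2 Mb (8.07 to 22.6%) and 4 to 5 Mb, and no trend with distance was tested.

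**Figure D4:**
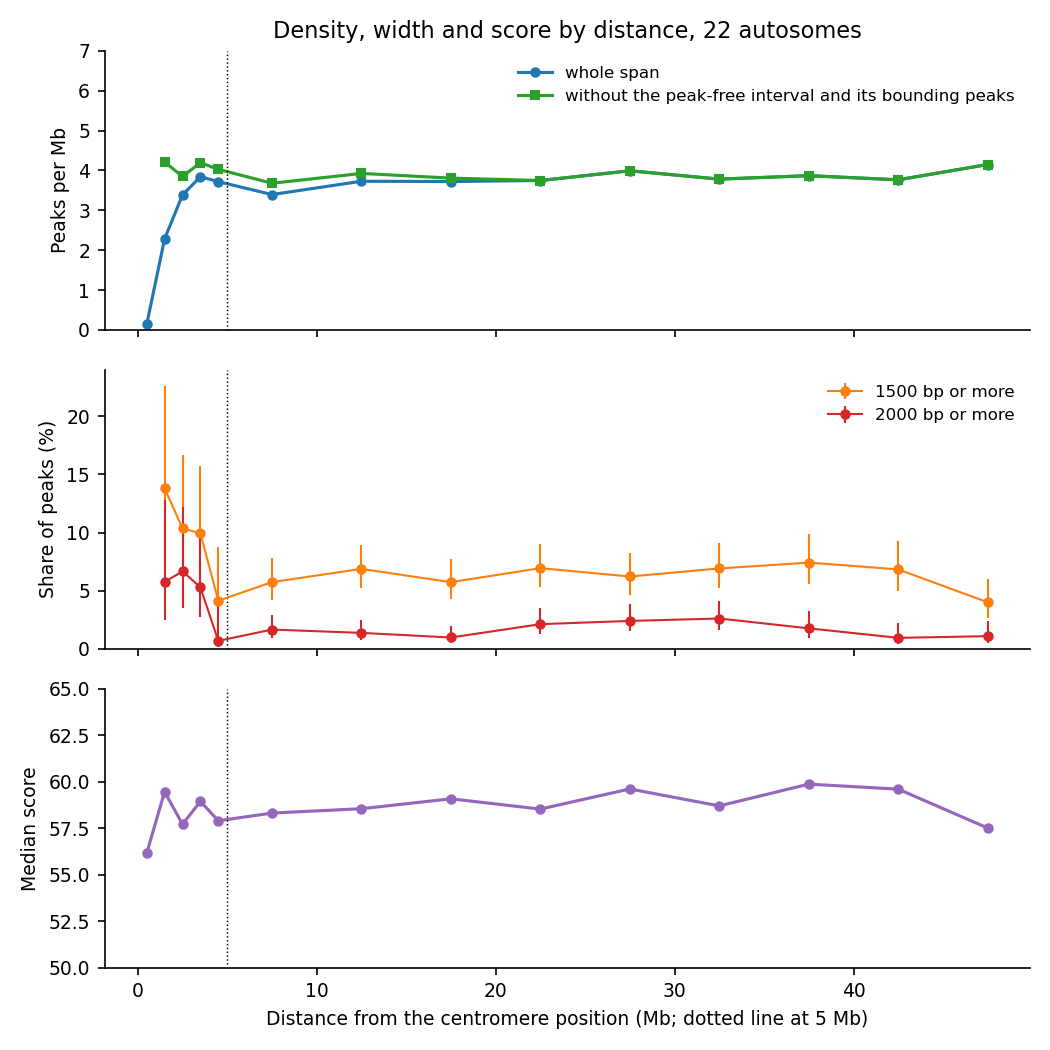
Peak density (top, peaks per Mb), share of wide peaks (middle, %, with Wilson 95% intervals) and median score (bottom) by distance from the centromere position over 22 chromosomes, in steps of 1 Mb to 5 Mb and of 5 Mb beyond. Density starts at 0.139 peaks per Mb and levels after 3 Mb, the share from 1500 bp is 13.8% at 1 to 2 Mb and 4.14% at 4 to 5 Mb, and the median score stays between 56.2 and 59.9. The first Mb, with 0 of 5 peaks wide, is left out of the middle panel and of the green line.

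Scores differed little between members and the other peaks. The median score was 58.4 in members and 58.8 in the other peaks, and the quartiles were 53.4 and 69.7 against 53.8 and 68.3. Scores from 60 upward belonged to 233 members (44.6%, Wilson 95% interval 40.3 to 48.8) and 4441 other peaks (45.7%), against 45.7% of all peaks. Scores from 100 upward belonged to 17 members (3.25%, interval 2.04 to 5.14) and 279 other peaks (2.87%), against 2.89% of all. Over 21 chromosomes the median score was higher near the centromere in 8 and lower in 13, by a median of -0.33 (exact two-sided sign test, p = 0.38, adjusted p = 0.38). Against peaks at 5 to 25 Mb only, the direction turned, with a median of 0.18 (exact sign test, adjusted p = 0.50).

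Between chromosomes, the difference in median score ran from -3.45 to 5.89. It was highest on chromosome 21, with 63.05 in members and 57.16 in the rest, on chromosome 2 (63.04 and 58.86) and on chromosome 15 (62.21 and 59.17). It was lowest on chromosome 14, with 54.53 in members and 57.97 in the rest, on chromosome 22 (54.59 and 57.90) and on chromosome 10 (56.79 and 59.86). Chromosomes 21 and 15 thus ranked among the first 3 for both width and score, and chromosome 22 among the last 3 for both.

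The 10 members with the highest scores ranged from 711 to 2758 bp in width. The highest, 711 bp wide, lay on chromosome 2 between 97472517 and 97473227, with a score of 166.95 and rank 8 in the whole list. It was followed on chromosome 5 by a member of 773 bp, between 52119383 and 52120155, which scored 148.90. The next, on chromosome 14, had 1935 bp between 20089270 and 20091204 and scored 131.24. Scores of 121.88, 117.97, 117.34, 111.37, 109.57, 106.06 and 105.02 followed on chromosomes 8, 16, 11, 4, 6, 11 and 9. The widths of these 7 were 1430, 942, 987, 1173, 2758, 1223 and 1545 bp. Of the 17 members with a score of 100 or more, 4 reached 1500 bp, against 8.99% of all members and 5.26% of all peaks. The same count was not made for other peaks with such scores. In all, 6 members stood among the first 100 scores of the list, close to the 5.06% that members make up of all peaks. These peaks lay 1.34 to 4.93 Mb from the centromere position, 6 of the 10 on the long arm side.

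Width and score were also set against each other within the members. Peaks of 1500 bp or more had a median score of 68.7 (47 members), compared with 57.9 in narrower members (476). In the other peaks the medians were 68.3 and 58.4, so the higher score of wide peaks was shared by both. Of the 23 members from 2000 bp, 7 scored under 60 and 2 scored at least 100. Among all peaks of the 22 chromosomes, 45.7% scored at least 60 and 2.89% at least 100. Spearman's rho between width and score was 0.056 over 523 members and 0.038 over 9715 other peaks. All peaks come from the same pair of libraries, and the score depends on the background to which each peak was compared.

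**Figure D5:**
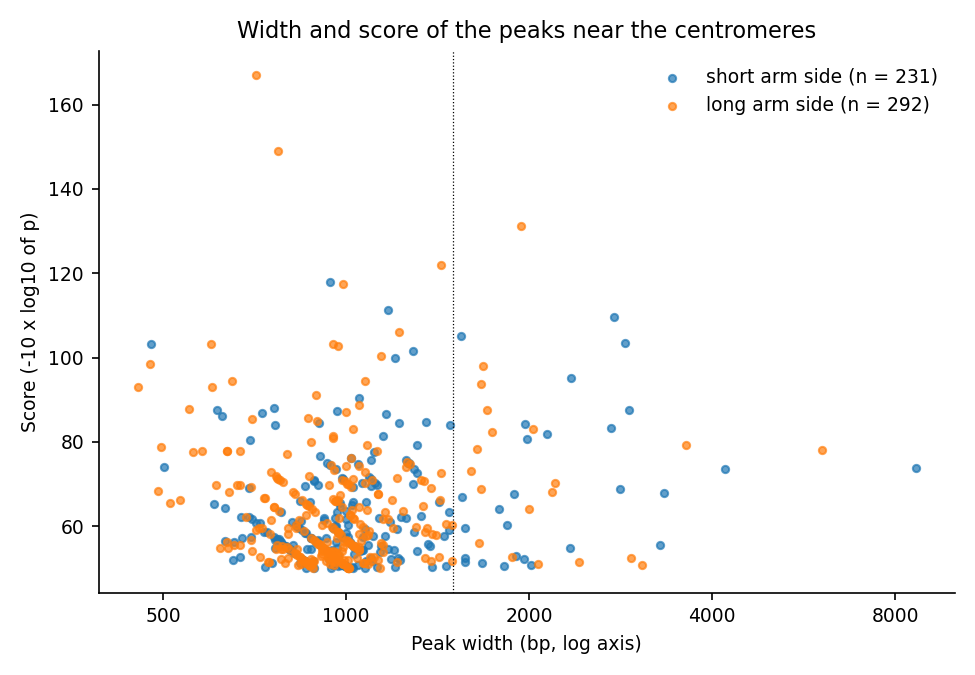
Peak width (horizontal log axis, bp) and score (vertical axis, 10 times the negative log10 p) of the 523 members, with the short arm side in blue and the long arm side in orange (292). The dotted line marks 1500 bp. The 2 highest scores, 166.95 and 148.90, belong to peaks of 711 and 773 bp, while the widest peak, at 8644 bp, scores 73.88.

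The 2 sides of the centromere were then described apart. The long arm side had 292 members on 19 chromosomes, and the other members lay on the short arm side of 18. Counted from the innermost peak, density was 4.12 peaks per Mb on the short arm side and 4.61 on the long arm side. Each stretch then begins with a counted peak by construction. The sides also differ in their chromosomes, since the short arm side lacks 13, 14, 15 and 22 and the long arm side lacks 1, 9 and 16. The median width was 992 and 956.5 bp, and the median score 57.7 and 58.7. Peaks of 1500 bp or more made up 27 members on the short arm side (11.7%, Wilson 95% interval 8.16 to 16.5) and 20 on the long arm side (6.85%, interval 4.48 to 10.3). Of the 27, 7 lay on chromosome 5 and 4 on chromosome 21.

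Spacing was described last. The median gap to the next peak was 153 kb for members and 157 kb for the other peaks, and that to the nearest peak on either side was 83.6 and 77.8 kb. Another peak lay under 10 kb away for 53 members (10.1%, Wilson 95% interval 7.83 to 13.02) and 962 other peaks (9.90%). Members under 10 kb apart formed 26 runs. The longest run, with 3 peaks of 900, 1061 and 1077 bp, lay on chromosome 17 from 19192564 to 19205510, with scores of 69.77, 54.35 and 51.69.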

How the data were processed

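ChIP and input DNA of MDA-MB-231 cells were each sequenced in 1 library. Per the labels, the authors' processing notes name hg19 and Bowtie2 2.1.0. The deposited list holds, for each peak, positions and a MACS score, taken as 10 times the negative log10 p because no score is under 50, which is the 1e-05 limit that the list is named for. The version of MACS, its handling of duplicates and region filters are not given in the sources used here. Width was end minus start as deposited, and starts are printed with 1 added.

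Distances were taken from peak midpoints. Density used the length between the outermost peaks of a chromosome in place of bases outside assembly gaps, because a genome and gene annotation of hg19 were not used here. For the same reason, sequences of peaks and genes at peaks were not analysed here. Chromosomes were the units of exact two-sided sign tests, with Benjamini-Hochberg adjustment over 3 tests and a threshold of 0.05. Medians were compared on chromosomes with at least 5 members. Shares carry Wilson intervals and density ratios exact conditional binomial intervals, at 95% confidence and for counting error only. Peaks named were the 10 highest in score, the 10 widest, the innermost, those at the border of the rule and the longest run, and, chosen after their values were seen, further wide peaks and the sides of chromosomes 2, 5, 8, 15 and 21. Chromosomes named were the 3 highest and 3 lowest for each measure. The members, limits and tests were chosen with earlier results of these data known. The tests were checked on simulated lists with positions drawn at random and with members made wider in every list. These lists had no empty interval at the centromere. The check therefore does not cover the effect of that interval or a list without a width difference. Python 3.11.15, numpy 2.4.6, pandas 2.3.3, scipy 1.17.1 and matplotlib 3.10.9 were used. The depth behind each peak is unknown.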

Additional observations from a re-analysis of the deposited data

How the results depend on the processing

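Alternatives were other distances (2, 3 and 10 Mb), a comparison with peaks at 5 to 25 Mb, leaving out chromosomes 1, 9 and 16 or the acrocentric ones, merging peaks under 1 kb apart, and peaks at or above the median score. For scores, peaks under 1500 bp were also taken alone. Leaving out each chromosome in turn, and the members that were the innermost peak of their side, was chosen after seeing the data. The density ratio of 0.778 became 0.327 within 2 Mb, 0.577 within 3 Mb, 0.791 against 5 to 25 Mb and 0.781 after merging, each then past the threshold. The first 2 follow from the empty interval, which fills most of such windows, and the other 2 also count it in the length. After merging, the unadjusted p of the density sign test did not change, and its adjusted p fell only through the lower p for width. Without the empty interval the ratio was 1.07 and the direction turned. Without each chromosome, and with the interval kept, the density ratio ranged from 0.764 to 0.791. It then passed the threshold (adjusted p = 0.022, exact sign test) without chromosome 4, 6, 14, 18 or 19, each of which runs against the majority. The difference in median width passed within 3 Mb (46.5 bp) and after merging (17.5 bp), and ranged from 11.75 to 17 bp without each chromosome. The difference in median score turned to 0.18 against 5 to 25 Mb and ranged from -0.47 to -0.20 without each chromosome. The share of wide peaks was 13.04% within 2 Mb (5.19% in the other peaks), 12.6% among peaks at or above the median score (7.51%) and 4.40% from 2000 bp (1.18%), and ranged from 8.25% to 9.52% without each chromosome. The share of high scores was 44.6% from a score of 60 (45.7% in the other peaks) and ranged from 2.91% to 3.51% without each chromosome. The limits of 2000 bp and of 60 change the class by construction, and for the changes not explained above the cause was not tested. No paired analysis was possible because there is 1 library of each kind. Sequence and gene results were not run.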
